A study of Mus musculus with 38 samples.

Results

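Genes of mouse chromosome 15 were described in 5 CD8 T cell clones. They were chosen because in 1 clone, 8uvmo-3, messenger RNA of its brighter genes tended to exceed the median of the other clones along the gene order. The set held 287 genes of the 748 chromosome 15 genes that had a probe set naming a single gene, out of 19856 such genes in the whole series. A gene entered when the mean of its log2 level over all 38 arrays exceeded 8, and the brightest probe set stood for it. Myc and the Ly6 genes were left out, which removed 3 genes that had passed this minimum. That mean includes the 8uvmo-3 arrays: over the 30 arrays of the other clones, 14 of the 287 genes lay at or below 8 and thus passed only through the clone in which they are high. The shift of a clone was the mean of that clone minus the median of the other 4 clone means, taken in each state. The chromosome was chosen by the 8uvmo-3 shift, so that shift is given as a description, without a test.

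The clones came in a dormant state (18 arrays) and activated for 14 h by surface-bound anti-CD3 (antibody 145-2c11 at 0.5 ug/ml), which engages the T cell receptor complex (20 arrays). Clones sAg1 and sAg3 carry the label CD8IL13+ and are the CD8γ13 clones of the series, 8uvmo-2 and 8uvmo-3 carry the label CD8IL13- and are its Tc1 clones, and CD8bm1 is an alloreactive conventional CD8 clone. No genetic alteration is named for any clone, and all were grown in RPMI medium with fetal bovine serum. Of the 10 groups, 8 held 4 arrays, and the dormant groups of sAg1 and sAg3 held 3. Every clone is a single T cell lineage, so a difference between 8uvmo-3 and the others is a difference between cell lines and not between phenotypes. The labels do not say that arrays of a group came from separate cultures, and p-values therefore measure only how these arrays vary, which may be technical.

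A gene's messenger RNA level depends on its promoter and on the number of gene copies. In cells with an additional copy of a chromosome, many genes along it are expressed at a somewhat higher level together, while single genes still follow their own regulation. With 3 copies in place of 2 and a proportional response, the difference on the log2 scale would be 0.585. No DNA was measured in these clones, so copy number was not tested. In bulk RNA, more cells expressing a gene and more RNA per cell cannot be told apart.

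Of the 8 CD8 T cell marker genes looked for, 7 were measured and 6 exceeded a log2 level of 8 in every group; the exception was Cd2, at 5.8 in dormant sAg3 and 5.59 in dormant CD8bm1. The B cell list stayed at means of 5.00 to 6.01. Of the 5 macrophage and dendritic cell markers, 2 exceeded 8 in some group: Lyz2, with 9.26 in dormant sAg1, and Itgax, with 11.20 in dormant sAg3 and 5.35 in dormant 8uvmo-3; the part of these cell types in the results was not tested. Array medians over all named probe sets ran from 6.58 to 6.70 on dormant arrays and from 7.01 to 7.09 on activated ones. Arrays of 1 group correlated at 0.931 to 0.997 over the 287 genes. The lowest value fell in dormant 8uvmo-2, where arrays 1 and 3 stood apart from arrays 2 and 4, and dormant CD8bm1 also spread widely, down to 0.951.

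The promoters of 4 genes are shown because results below turn on them: Itgb7 and Grasp were among the 3 genes with the highest shift in 8uvmo-3, and Myo10 and Il7r had the largest differences between the activation response of 8uvmo-3 and that of the other clones. Each sequence is the 250 bases upstream of the first listed start, from RefSeq on GRCm38.p6, read 5′ to 3′ on the strand of the gene. Itgb7 lies at chr15:102231936-102232185 on the minus strand and Grasp at chr15:101223957-101224206 on the plus strand. Myo10 lies at chr15:25622300-25622549 on the plus strand and Il7r at chr15:9529877-9530126 on the minus strand. Capitals mark matches on either strand to the GC box GGGCGG, the ETS motif CCGGAAG, the TATA motif TATAAA or the CCAAT box.
Itgb7: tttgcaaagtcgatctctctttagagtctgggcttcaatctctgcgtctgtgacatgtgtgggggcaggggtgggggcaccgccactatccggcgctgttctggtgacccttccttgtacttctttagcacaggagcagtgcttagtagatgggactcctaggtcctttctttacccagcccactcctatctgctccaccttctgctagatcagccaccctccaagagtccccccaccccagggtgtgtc
Grasp: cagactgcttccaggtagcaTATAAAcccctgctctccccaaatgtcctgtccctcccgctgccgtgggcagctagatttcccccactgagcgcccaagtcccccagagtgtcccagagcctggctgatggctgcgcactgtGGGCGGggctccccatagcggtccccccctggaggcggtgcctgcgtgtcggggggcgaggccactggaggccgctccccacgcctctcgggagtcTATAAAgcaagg
Myo10: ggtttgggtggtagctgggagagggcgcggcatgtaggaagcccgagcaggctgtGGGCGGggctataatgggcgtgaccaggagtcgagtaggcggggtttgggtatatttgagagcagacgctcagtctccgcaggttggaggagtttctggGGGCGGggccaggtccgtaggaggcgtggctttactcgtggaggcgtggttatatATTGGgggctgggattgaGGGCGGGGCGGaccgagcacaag
Il7r: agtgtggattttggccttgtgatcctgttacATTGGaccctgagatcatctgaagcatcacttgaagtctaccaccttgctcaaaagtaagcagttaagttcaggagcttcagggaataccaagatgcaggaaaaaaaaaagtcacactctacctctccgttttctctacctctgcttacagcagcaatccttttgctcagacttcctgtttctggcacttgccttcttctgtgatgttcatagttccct

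Among the 27025 promoters of the table, 32.9% held the GC box, 7.05% the ETS motif, 13.0% the TATA motif and 34.5% the CCAAT box. The Myo10 window held the GC box and the CCAAT box, in part as adjoining GC boxes, 17 CpG dinucleotides and 62.8% G and C. The Grasp window held the GC box and the TATA motif with 13 CpG dinucleotides and 66.4% G and C. The Il7r window held the CCAAT box, 1 CpG dinucleotide and 44.0% G and C. The Itgb7 window held none of these letters, 5 CpG dinucleotides and 56.0% G and C; the medians over all promoters were 6 CpG dinucleotides and 52% G and C. Only 162 of the 287 genes (56.4%) had an entry in the promoter table, so a comparison of promoter features over the set is void.

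In dormant 8uvmo-3, the median over the 287 genes lay above the other clones by 0.34, 0.26, 0.28 and 0.27 (log2) on arrays 1 to 4, a mean of 0.289 ± 0.036 (SD, n = 4). In activated 8uvmo-3 the same value was 0.32, 0.29, 0.30 and 0.32, a mean of 0.308 ± 0.015 (SD, n = 4). The 30 arrays of the other clones ran from -0.18, in dormant sAg3, to 0.08, in activated sAg1. No array of another clone thus reached the range of 8uvmo-3 in either state. Group means were -0.01 ± 0.02 (SD, n = 3) in dormant and 0.03 ± 0.04 (SD, n = 4) in activated sAg1, and -0.109 ± 0.065 (SD, n = 3) and -0.112 ± 0.006 (SD, n = 4) in sAg3. They were -0.07 ± 0.01 and -0.06 ± 0.03 (SD, n = 4 each) in 8uvmo-2, and -0.09 ± 0.06 and -0.14 ± 0.02 (SD, n = 4 each) in CD8bm1. Without the dormant 8uvmo-2 arrays 1 and 3, the dormant median of 8uvmo-3 clone means was 0.31 in place of 0.28, and without the dormant CD8bm1 arrays 1 and 3 it was 0.27.

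**Figure D1:**
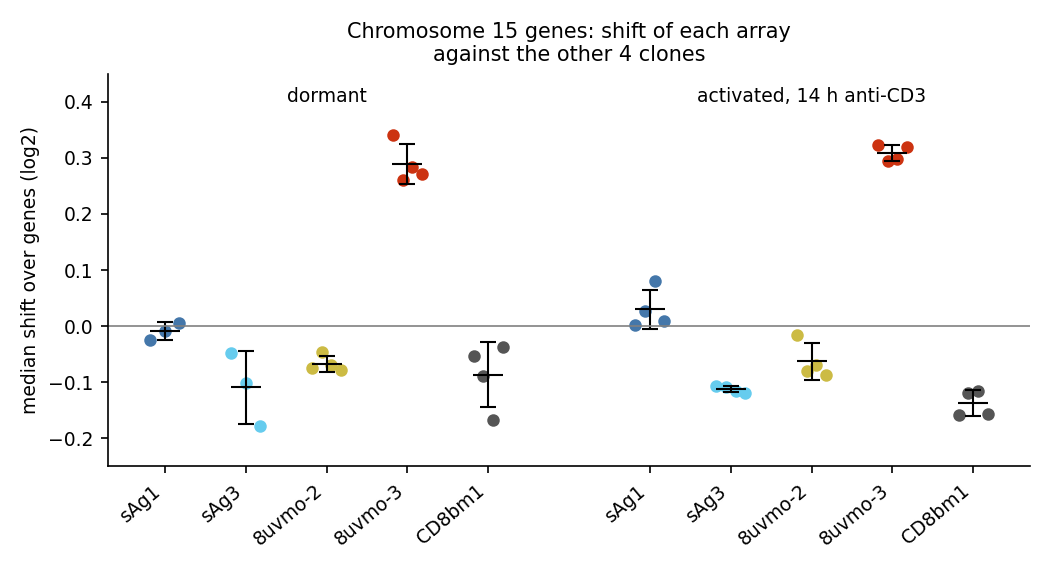
Median over 287 chromosome 15 genes of the shift of each array against the median of the other 4 clone means (log2, vertical axis), by clone and state; points are arrays and bars are the group mean and SD. The 8uvmo-3 arrays lie between 0.26 and 0.34, and all other arrays at or below 0.08.

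Gene by gene, the 8uvmo-3 clone mean exceeded the median of the other clones for 230 of the 287 genes in the dormant state and for 247 after activation. The median shift was 0.28 (quartiles 0.08 and 0.53) in the dormant and 0.30 (quartiles 0.14 and 0.51) in the activated state, or 1.21-fold and 1.23-fold. In both states 213 genes (74.2%) lay above 0 and 23 (8.01%) below it, and 51 did neither. Over the 6813 genes of the other chromosomes above the same brightness, 35.2% lay above 0 and 38.3% below it in both states in this clone. Averaged over both states, 197 of the 287 genes (68.6%) had a shift between 0 and 0.585, 48 a larger one and 42 one at or below 0. These counts are a description, and copy number was not tested. Averaged in the same way, 12 genes exceeded 1 while 6 lay below -1. The shift of a gene in one state correlated with that in the other at Pearson's r = 0.70 and Spearman's rho = 0.55 over 287 genes, and at r = 0.51 without the 10 farthest genes. The states have separate arrays but share the clones and the probe sets, and genes are not independent replicates.

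**Figure D2:**
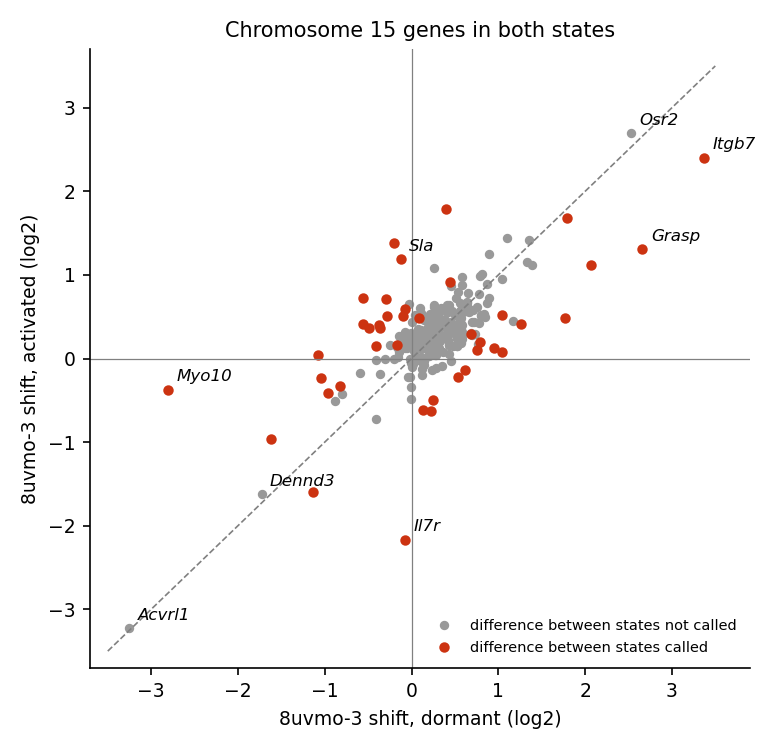
Shift of 8uvmo-3 in the dormant state (horizontal axis, log2) and after activation (vertical axis, log2), 1 point per chromosome 15 gene; red points passed the test of a difference between the activation effect of 8uvmo-3 and that of the other 4 clones, and the dashed line marks equal shifts. Most genes form a cloud just above and to the right of 0, with Itgb7, Osr2 and Grasp far above and Acvrl1 far below in both states.

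Complete separation of arrays was counted next. For 39 of the 287 genes (13.6%) every 8uvmo-3 array lay above every array of the other clones in both states, against 2.04% of the genes of the other chromosomes. Of these 39 genes, 5 (Osr2, Card6, Rarg, Gramd4 and Ttc33) had a mean at or below 8 over the other clones. With the minimum applied to the other clones alone, a choice made after seeing the data, 34 of 275 genes (12.4%) were separated, against 1.7% on the other chromosomes. In the opposite direction 2 genes (0.697%), Acvrl1 and Yaf2, lay below on every array, against 2.6% of the other genes. 8uvmo-3 had the highest clone mean in both states for 106 genes and the lowest for 6, which was not counted on the other chromosomes. These counts use the contrast by which the chromosome was chosen and add no support to it.

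Chromosome 15 was not alone in this clone. Over the 361 genes of chromosome 10 with the same brightness, the 8uvmo-3 shift had a median of 0.27 in the dormant and 0.29 in the activated state. Per array, chromosome 10 gave 0.277 ± 0.029 (SD, n = 4) and 0.298 ± 0.023 (SD, n = 4), within 1 SD of the chromosome 15 values. There, 271 genes (75.1%) lay above 0 in both states and 44 (12.2%) were separated on every array. Chromosome 15 ranked first of 20 chromosomes in both states and chromosome 10 second, followed by chromosome 4 with 0.14 and 0.12. The lowest median was that of chromosome 5, at -0.20 and -0.21. Other clones had displaced chromosomes of similar size: the highest median was 0.32 and 0.26 for chromosome 8 in sAg3, 0.25 and 0.23 for chromosome 12 in sAg1, and 0.24 and 0.18 for chromosome 1 in CD8bm1. In 8uvmo-2 it was 0.32 both for dormant chromosome 17 and for activated chromosome 1.

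**Figure D3:**
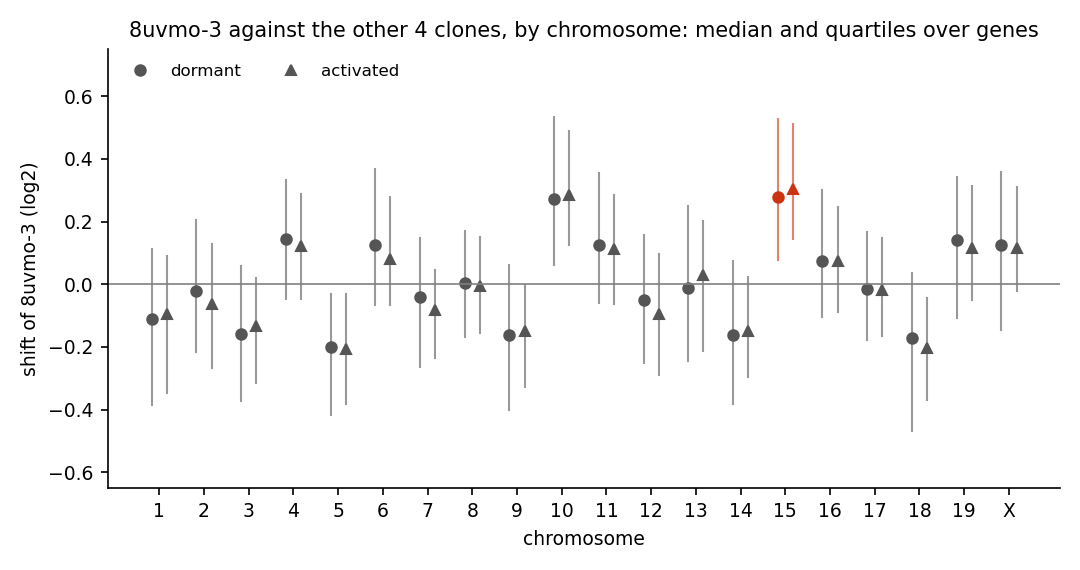
Shift of 8uvmo-3 against the other 4 clones (log2, vertical axis) by chromosome; circles (dormant) and triangles (activated) are medians over genes with mean log2 above 8, and lines span the quartiles over genes. Chromosome 15 (red) and chromosome 10 lie near 0.3 in both states, and the medians of the other chromosomes between -0.21 and 0.14.

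The shift ran along the whole chromosome. In order of gene position and cut into 5 bins of 57 or 58 genes, the dormant medians in 8uvmo-3 were 0.30 (Selenop to Lrp12), 0.20 (Eif3e to Gpaa1), 0.29 (Cyc1 to Rps19bp1), 0.27 (Grap2 to Ano6) and 0.36 (Arid2 to Pde1b). After activation they were 0.33, 0.27, 0.25, 0.31 and 0.39. A running median over 21 neighbouring genes was above 0 at all 267 positions in both states. It was lowest in the dormant state around Efr3a (0.02), where it nearly reached 0, and highest around Slc11a2 (0.50); after activation it ran from 0.20 around Lrp12 to 0.55 around Spryd3. The clone nearest to it was sAg1, above 0 at 117 of the 267 positions in the dormant and at 148 in the activated state. The other clones were above 0 at 21 to 67 positions.

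A stretch of 20 neighbouring genes from Derl1 to Phf20l1, picked after its values were seen because the running median of CD8bm1 exceeded 0.2 there in both states, stood apart from the rest of the chromosome. Here the median shift of CD8bm1 was 0.41 in the dormant and 0.44 in the activated state, against -0.11 and -0.16 over the other 267 genes. In sAg3 the same stretch lay at -0.38 and -0.50, against -0.08 and -0.10 elsewhere. In 8uvmo-3 it lay at 0.16 and 0.25, against 0.28 and 0.31 elsewhere. The shifts of the clones are taken against each other and are not independent. Among its genes, Atad2, a chromatin-bound ATPase, had CD8bm1 shifts of 0.64 and 0.92. Sqle, the squalene epoxidase of cholesterol synthesis, had 1.54 and 0.45, and Ndufb9, a subunit of respiratory complex I, 0.67 and 0.45. Tmem71, near the end of the stretch, had -2.19 and -1.88.

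**Figure D4:**
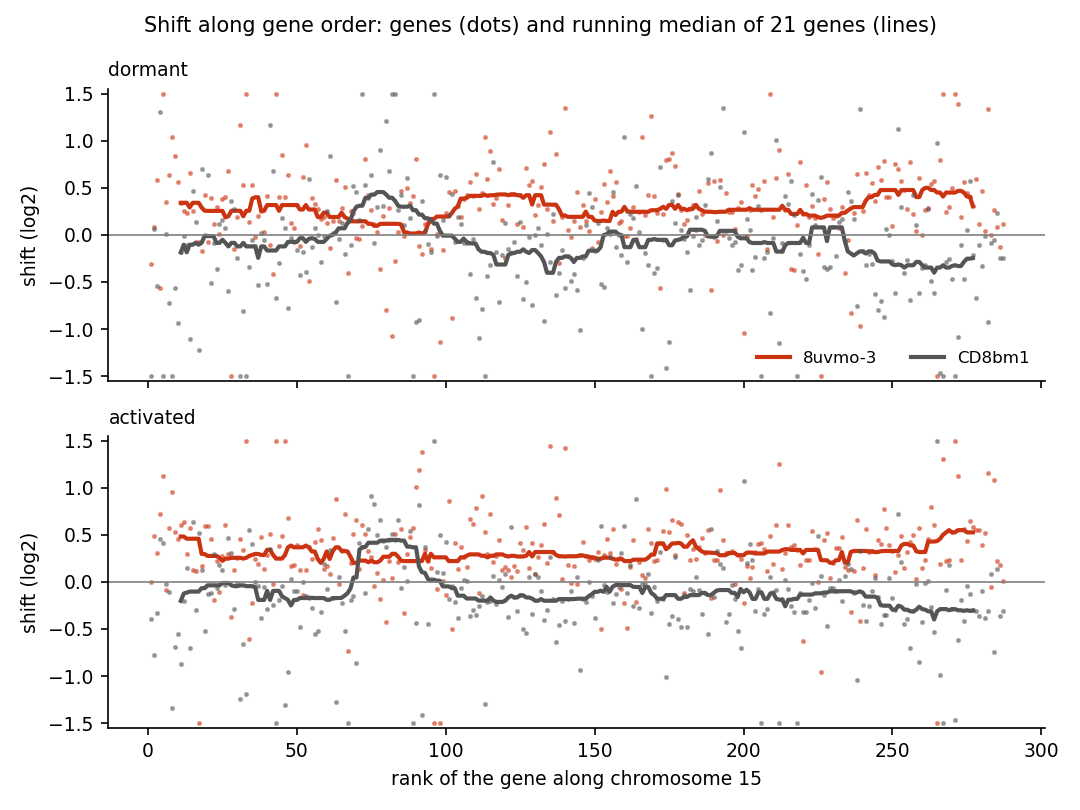
Shift of 8uvmo-3 (red) and CD8bm1 (grey) along the order of the 287 genes on chromosome 15, dormant above and activated below; dots are genes, with those beyond 1.5 or -1.5 drawn at the edge, and lines are running medians over 21 genes. The red line stays above 0 throughout, and the grey line rises above 0.2 from about the 71st to the 90th gene in both states.

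The size of the shift differed little with brightness among the 287 genes. For the 107 genes with a mean log2 of 8 to 9, the dormant and activated medians were 0.29 and 0.28. The 84 genes from 9 to 10 had 0.32 and 0.35, the 59 genes from 10 to 11 had 0.24 and 0.27, and the 37 brighter genes 0.26 and 0.30. The dimmer chromosome 15 genes differed: the 98 genes from 7 to 8 had medians of 0.09 and 0.11, and all 449 genes at or below 8 had -0.01 and 0.01. The genes just outside the minimum were Mettl7a1 (mean log2 8.00 after rounding; 8uvmo-3 shifts 1.99 and 0.20), C030006K11Rik (7.98; 0.75 and 0.35) and Pced1b (7.97; 0.46 and 0.22). Just inside were Osr2 (8.01; 2.53 and 2.70), Nadk2 (8.01; 0.26 and 0.12) and Micall1 (8.01; 0.68 and 0.30). All 3 just inside passed through their level in 8uvmo-3, since over the other clones their means were 7.49, 7.99 and 7.92. The 26 genes with several probe sets offered 39 further probe sets that the rule had not used, with medians of 0.20 and 0.18; of these, 30 lay above 0 in the dormant and 33 in the activated state. They report the same genes on the same arrays.

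Among 8uvmo-3's highest genes, Itgb7 encodes the integrin β7 chain that pairs with α4 or αE in homing to and retention in mucosal tissue. Its dormant 8uvmo-3 arrays read 12.36, 12.36, 12.37 and 12.29, while sAg1 read 10.93, 11.13 and 11.13 and 8uvmo-2 11.53, 11.71, 11.50 and 11.84. Dormant sAg3 (6.88, 6.46 and 6.40) and CD8bm1 (6.64, 7.56, 6.61 and 6.69) were far lower. The clones thus fell into a high and a low set for this gene, with 8uvmo-3 at the top of the high set and no overlap. After activation 8uvmo-3 read 10.56, 9.67, 10.46 and 9.14, above sAg1 (8.51, 8.71, 8.60 and 7.98) and 8uvmo-2 (8.08, 7.88, 8.08 and 8.12). Activated sAg3 gave 7.24, 6.97, 7.06 and 7.01, and activated CD8bm1 7.05, 6.77, 6.55 and 6.73. The Itgb7 level of 8uvmo-3 minus the mean of the other 4 clones was 3.30 ± 0.17 (SE) in the dormant and 2.37 ± 0.16 (SE) in the activated state.

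Osr2, a zinc finger transcription factor, gave 9.0, 8.86, 8.60 and 8.88 in dormant 8uvmo-3 and 10.83, 11.27, 10.74 and 11.44 after activation. Dormant Osr2 levels in the other clones had means of 6.14 to 7.49, the highest in sAg1. After activation, Osr2 means were 9.56 ± 0.16 (SD, n = 4) in sAg1 and 9.62 ± 0.41 in 8uvmo-2, but 7.19 ± 0.15 in sAg3 and 7.03 ± 0.19 in CD8bm1. 8uvmo-3 lay above every other array in both states, and only its level brought the mean of Osr2 over all arrays past 8.

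Grasp, a scaffold protein of membrane trafficking, gave 11.93, 11.66, 11.66 and 11.82 in dormant and 11.84, 11.50, 11.83 and 11.36 in activated 8uvmo-3. Dormant Grasp means in the others were 9.94 ± 0.15 (SD, n = 3) in sAg3, 9.34 ± 0.11 (SD, n = 3) in sAg1, 8.87 ± 0.19 (SD, n = 4) in 8uvmo-2 and 6.01 ± 0.44 (SD, n = 4) in CD8bm1. Again 8uvmo-3 was above all other arrays in both states, and CD8bm1 was the lowest clone.

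The other genes among the 10 with the highest shift averaged over states were Otulinl, a relative of the deubiquitinase Otulin (1.74), and Card6, a protein with a caspase recruitment domain (1.60). They also included Kctd17, an adaptor of cullin ubiquitin ligases (1.39), Foxred2, a flavoprotein of endoplasmic reticulum degradation (1.27), and the retinoic acid receptor Rarg (1.26). Calcoco1, a receptor for autophagy of the endoplasmic reticulum, had 1.25 and Fam118a 1.13. Card6, Foxred2, Rarg and Calcoco1 were separated from the other clones on all arrays in both states. Osr2, Card6, Rarg and Fam118a passed the brightness minimum only through 8uvmo-3, with means of 7.49, 7.95, 7.85 and 7.82 over the other clones. Otulinl and Fam118a overlapped with 8uvmo-2 after activation, and Kctd17 overlapped with sAg3 in the dormant state.

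The lowest gene was Acvrl1, a type I receptor of the TGF-β family. Its 8uvmo-3 arrays read 7.14, 7.37, 7.86 and 7.45 in the dormant and 7.64, 8.10, 8.08 and 7.64 in the activated state. The next lowest clone was 8uvmo-2, with 9.16, 9.75, 9.32 and 9.63, and 8.65, 8.62, 9.07 and 8.91. Acvrl1 means of sAg1, sAg3 and CD8bm1 were 10.47 to 10.96 in the dormant and 10.77 to 11.42 in the activated state. Acvrl1 thus separated both 8uvmo clones from the other 3 clones. The Acvrl1 level of 8uvmo-3 minus the mean of the others was -3.0 ± 0.11 (SE) and -2.74 ± 0.11 (SE).

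Dennd3, an exchange factor for a Rab GTPase, also stood low in both 8uvmo clones, at dormant means of 6.55 ± 0.24 in 8uvmo-3 and 6.47 ± 0.13 in 8uvmo-2 (SD, n = 4 each), and these overlapped. Yaf2, a partner of Polycomb proteins, had 8uvmo-3 means of 8.34 ± 0.09 dormant and 8.46 ± 0.10 activated (SD, n = 4 each), below all arrays of the other clones, whose means were 9.65 to 10.38 and 9.04 to 9.69. Ptp4a3, a membrane-bound phosphatase, had shifts of -1.14 and -1.60. In the dormant state its 8uvmo-3 arrays (9.12 to 9.55) lay above those of sAg1 (8.93 to 9.07), the lowest clone there. Myo10 and Il7r completed the 6 lowest genes and are described with activation.

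**Figure D5:**
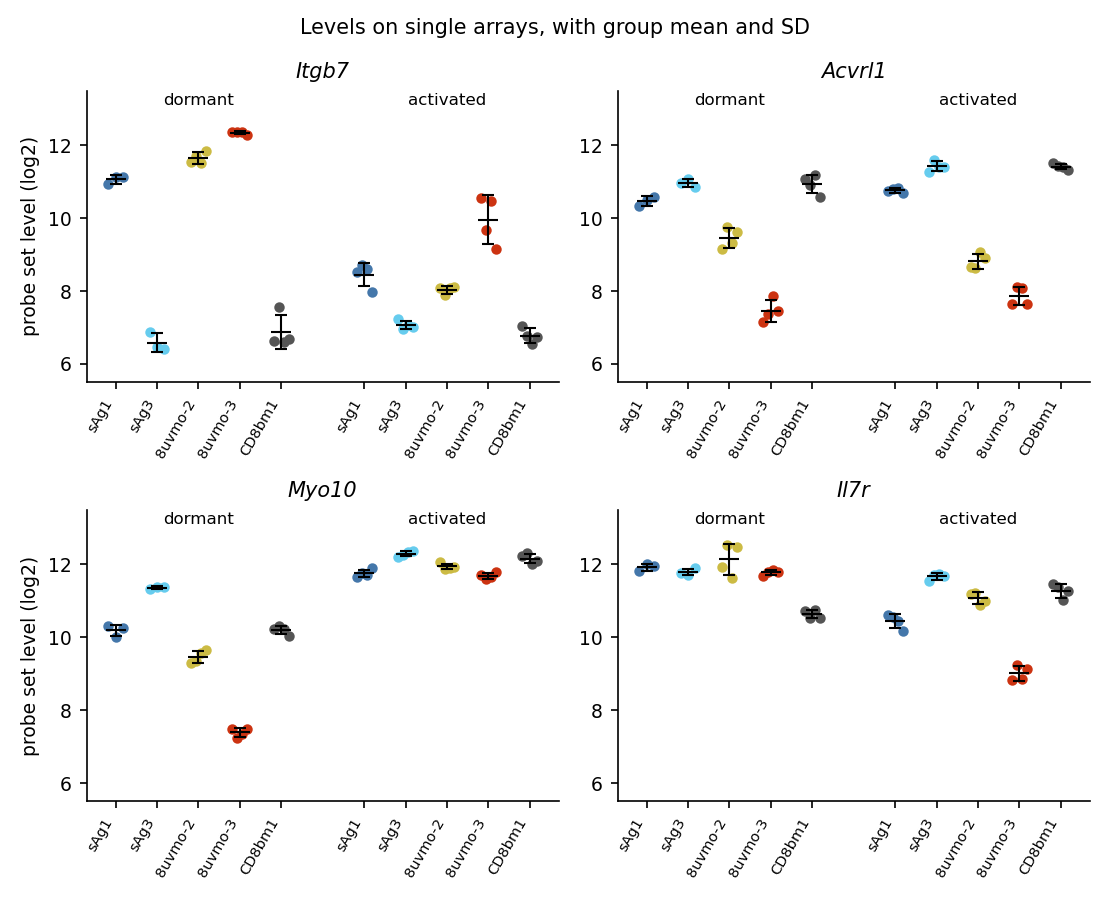
Levels of Itgb7, Acvrl1, Myo10 and Il7r (log2 probe set values, vertical axes) on single arrays by clone and state, with group mean and SD. 8uvmo-3 is the highest clone for Itgb7 and the lowest for Acvrl1 in both states; it is far below the others for Myo10 when dormant and for Il7r when activated.

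Across the functional lists the shift was spread over many kinds of genes. The lists hold chromosome 15 genes chosen with earlier results of these data known, so they are described by counts and medians beside the 0.28 and 0.30 of all 287 genes. Those named beyond the 4 brightest of a list were picked after their values were seen. Genes of transcription and chromatin (18 of the 24 measured were bright enough) had medians of 0.40 and 0.41, with 14 above 0 and 1, the histone deacetylase gene Hdac7, below 0 in both states. Their brightest members were Sub1, a transcription coactivator (0.39 and 0.46), the splicing factor gene Puf60 (0.42 and 0.62), the histone acetyltransferase gene Ep300 (0.28 and 0.23) and Zfr (0.12 and -0.19). Puf60 was separated on every array: dormant 8uvmo-3 read 11.20, 11.08, 11.16 and 11.04, against 10.25 to 10.85 on all other dormant arrays.

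Adhesion and cytoskeleton genes (12 of 17) had medians of 0.34 and 0.47, with 9 above 0 and 0 below it in both states. They included non-muscle myosin Myh9 (0.75 and 0.62), Bin2, a membrane-curving BAR protein of leukocytes (0.58 and 0.60), the GTPase Rac2 (0.15 and 0.16) and galectin-1, Lgals1 (-0.14 and 0.27). Myh9 shows how the shift depends on the reference: dormant 8uvmo-3 (13.29, 13.16, 13.12 and 13.11) overlapped with sAg1 (13.22, 13.12 and 13.17), while the other clones lay at means of 11.89 to 12.43.

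Cell cycle and genome maintenance genes (11 of 18) had medians of 0.31 and 0.44, 9 above 0 and 0 below it in both states. The cohesin subunit Rad21 had 0.28 and 0.32, the SMC5/6 ligase Nsmce2 0.47 and 0.56, the condensin II subunit Ncaph2 0.31 and 0.54, and Rangap1 0.05 and 0.24. Metabolism and transport genes (17 of 22) had 0.27 and 0.32, 12 above 0 and 0 below it. Among them, Slc38a1, a glutamine transporter, had 0.30 and 0.48, the ceramide synthase Cers5 0.27 and 0.32, and Ndufb9 0.29 and 0.23. Atp5g2, a subunit of ATP synthase, had 0.04 and 0.52. Atp5g2 is 1 of 8 genes whose probe set number lies outside the numbers shared by the other 279. The chromosome was taken from the named gene, and whether these 8 probe sets lie on chromosome 15 was not tested. Of the 8, Cox6c, Zfp706 and Rbx1 are counted among the 39 separated genes; the medians without the 8 were 0.28 and 0.30.

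Translation and RNA-binding genes (14 of 16) had smaller medians, 0.17 and 0.25, with 11 above 0 and 1, the RNA helicase gene Ddx17, below 0 in both states. The ribosomal protein Rpl8 had 0.32 and 0.27, and dormant 8uvmo-3 (12.81, 12.81, 12.85 and 12.77) lay above all other dormant arrays, which reached 12.69. Poly(A)-binding protein Pabpc1 had 0.13 and 0.17, the translation factor subunit Eif3h 0.14 and -0.02, and Ywhaz, a 14-3-3 protein and another of the 8 genes, 0.07 and 0.18. Trafficking and endoplasmic reticulum genes (12 of 12) had 0.09 and 0.28, 8 above 0 and 0 below it. Their brightest members were Tmbim6, an inhibitor of cell death (0.09 and 0.32), the ESCRT-I subunit Vps28 (0.71 and 0.58), the stress-induced chaperone-like Creld2 (-0.36 and 0.37) and the coatomer subunit Copz1 (0.08 and 0.23). Vps28 was also separated on every array, with dormant 8uvmo-3 at 12.35 to 12.46 against at most 12.11 elsewhere.

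The receptor and signalling list (8 of 19) was the most mixed, with medians of 0.22 and 0.18, 5 genes above 0 and 3 below it in both states. The 3 below were Acvrl1, Il7r and Tnfrsf11b, a decoy receptor for RANK ligand. Il2rb, the shared β chain of the interleukin-2 and interleukin-15 receptors, was bright in all clones and differed little. Its dormant 8uvmo-3 arrays read 12.10, 12.17, 12.21 and 12.22, among group means of 11.80 to 12.53, and its activated arrays 13.14, 13.15, 13.11 and 13.04, among means of 12.81 to 13.04 in the others. Sharpin, a subunit of the linear ubiquitin ligase, had shifts of 0.39 and 0.28.

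Activation was not used in choosing the genes, apart from the brightness minimum, which was taken over the arrays of both states. It was tested with limma over all 23410 named probe sets, as the mean over the 5 clones of activated minus dormant. Calls required an adjusted p (Benjamini-Hochberg) under 0.05, a log2 difference of at least 1 and an equal direction in all clones. Of the 287 genes, 9 (3.14%) rose and 10 (3.48%) fell. Among them, Osr2, Micall1 and Gramd4, which rose, and Card6 and Mpst, which fell, had passed the brightness minimum only through 8uvmo-3. Over all named probe sets 4.56% rose and 1.64% fell, and over those with a mean log2 above 8, 3.56% rose and 3.24% fell, so the shares on chromosome 15 were near those of bright probe sets. All named probe sets had a median difference of 0.35, against -0.02 for the 287 genes. Over the 6813 genes of the other chromosomes above the same brightness it was 0.01, near that of the 287. With each array centred on its median, 3 of the 287 rose and 32 fell, so the split between directions depends on the scaling. The shares over all named probe sets on centred arrays were not counted.

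Sla, an adaptor that restrains T cell receptor signalling, rose most (2.66 ± 0.10, SE; limma, adjusted p = 1.6e-22). Its dormant arrays in 8uvmo-3 read 7.82, 7.03, 6.64 and 6.55 and its activated arrays 10.62, 10.94, 10.44 and 11.32. Myo10, an unconventional myosin of filopodia, rose by 2.24 ± 0.04 (SE; limma, adjusted p = 1.83e-32), and Osr2 by 1.88 ± 0.07 (SE). Creld2 (1.26 ± 0.05), Micall1, a protein of endocytic recycling (1.17 ± 0.04), and Pop1, a subunit of RNase P and RNase MRP (1.12 ± 0.08), rose too. With centred arrays the latter 3 fell short of the minimum of 1, at 0.86, 0.77 and 0.71.

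Selenop, a secreted selenium carrier, fell most (-2.45 ± 0.06, SE; limma, adjusted p = 1.53e-27). In 8uvmo-3 it went from 10.58, 10.63, 10.79 and 10.72 to 8.22, 7.81, 8.02 and 7.33. The smallest fall was in sAg3, from a mean of 11.22 ± 0.04 (SD, n = 3) to 10.18 ± 0.22 (SD, n = 4), and no clone's states overlapped. Tmem71 (-1.95 ± 0.08, SE), Calcoco1 (-1.56 ± 0.08), Card6 (-1.40 ± 0.06), Otulinl (-1.34 ± 0.07) and the prefoldin subunit gene Pfdn5 (-1.20 ± 0.05) fell too. For Otulinl the sAg3 means were 7.52 and 7.50, so its equal direction rests on a difference within the spread. The Otulinl call was lost when dormant sAg3 array 1 or 2, or activated sAg3 array 2 or 3, was left out.

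The lists held few such genes: 1 transcription gene, Cbx7 (-1.01), and Pfdn5 fell, and of the trafficking genes Creld2 rose and Calcoco1 fell. Cbx7, just past the minimum, was called in 31 of the 38 fits with 1 array left out. In limma, 0 of the receptor, adhesion, cell cycle and metabolism members passed this rule. At an unadjusted p under 0.05 with no minimum, 3 receptor genes were higher and 2 lower, and 2 adhesion genes higher and 7 lower. By that rule 0 cell cycle genes were higher and 8 lower, and 8 metabolism genes higher and 7 lower. The share of all probe sets that pass this looser rule was not counted. These counts, and those by the same rule below, are thus no result about the lists. Median activation differences were 0.03 for receptors, -0.23 for adhesion, -0.34 for the cell cycle list and -0.05 for metabolism.

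The activation effect in 8uvmo-3 minus the mean of the same effect in the other 4 clones was tested in the same fit and called at an adjusted p under 0.05 and a log2 difference of at least 0.5. It is built from the same clone means as the shifts and equals the change of the 8uvmo-3 difference between states. Of the 287 genes, 22 (7.67%) had a more positive and 19 (6.62%) a more negative activation effect in 8uvmo-3. Over all named probe sets the shares were 3.35% and 4.34%, and over those with a mean log2 above 8 they were 5.61% and 5.66%. For the other 246 genes no difference was called, which does not show that the effects were equal. In 22 of the 41 called genes the 8uvmo-3 shift kept its sign between states, and in 19 it turned. Of the called genes, Card6, Fam118a and Bcdin3d, all more negative, had passed the brightness minimum only through 8uvmo-3.

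Myo10 had the largest difference, 2.56 ± 0.09 (SE; limma, adjusted p = 2.83e-21). Dormant 8uvmo-3 read 7.50, 7.23, 7.35 and 7.49, while the dormant means of the other clones were 9.47 to 11.36. After activation 8uvmo-3 read 11.70, 11.60, 11.65 and 11.78, overlapping with sAg1 (11.66, 11.76, 11.71 and 11.89). Myo10 thus rose by 4.29 in 8uvmo-3 and by 0.93 to 2.48 in the others, from a starting level far below theirs to a level near theirs. Its promoter, printed above, was the richest of the 4 in CpG dinucleotides, but a link to the response was not tested.

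Il7r, the α chain of the interleukin-7 receptor, had the most negative difference, -2.26 ± 0.15 (SE; limma, adjusted p = 5.32e-14). Dormant 8uvmo-3 read 11.68, 11.80, 11.85 and 11.80, overlapping with sAg1 (11.82 to 12.00), sAg3 (11.71 to 11.89) and 8uvmo-2 (11.63 to 12.52). Dormant CD8bm1 was lower, at 10.53 to 10.76. After activation 8uvmo-3 read 8.82, 9.23, 8.87 and 9.13, and no other array lay below 10.17. Il7r changed by -2.77 in 8uvmo-3, by -1.48 in sAg1, -1.06 in 8uvmo-2, -0.12 in sAg3 and 0.64 in CD8bm1, so the clones did not share a direction.

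Sla rose by 3.82 in 8uvmo-3 and by a mean of 2.37 in the others, a difference of 1.45 ± 0.25 (SE; limma, adjusted p = 2.77e-05). CD8bm1 alone rose by 4.09, so 8uvmo-3 was not the clone with the largest rise. Oxct1, an enzyme of ketone body use, went from 9.53, 9.42, 9.60 and 9.48 to 9.78, 9.73, 9.75 and 10.20 in 8uvmo-3, while the others changed by -0.24 (sAg3) to -1.38 (CD8bm1). The Oxct1 difference was 1.35 ± 0.11 (SE; limma, adjusted p = 8.71e-12). Ndrg1, a stress-responsive gene, had a difference of 1.34 ± 0.39 (SE; limma, adjusted p = 0.0127), and without dormant 8uvmo-3 array 1 it was 1.14 with an adjusted p of 0.0556. Ndrg1 changed by 0.91 in 8uvmo-3 but by 1.63 in sAg1, so the other clones did not share a direction. It also had a wide spread in dormant 8uvmo-2 (9.90, 12.63, 11.18 and 12.69), and without arrays 1 and 3 of that group its difference was 1.61 with an adjusted p of 2.71e-06.

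Grasp, Fam118a and Sun2 had more negative effects in 8uvmo-3, by -1.06 ± 0.18, -1.06 ± 0.11 and -0.96 ± 0.08 (SE). Of these, Fam118a had passed the brightness minimum only through 8uvmo-3. Grasp was flat in 8uvmo-3 (-0.14), from a level already high, and changed by 0.50 to 1.33 in the others. Fam118a changed by -1.48 in 8uvmo-3 and by a mean of -0.42 in the others, which hides a change of -1.34 in sAg1 beside -0.37 in 8uvmo-2, -0.01 in sAg3 and 0.03 in CD8bm1. Sun2, a nuclear envelope protein linking the nucleus to the cytoskeleton, changed by -1.86 and by a mean of -0.90. Among the other clones, sAg1 (-1.60) and 8uvmo-2 (-1.52) came close to 8uvmo-3, and CD8bm1 (-0.42) and sAg3 (-0.08) did not. For Sun2, dormant 8uvmo-3 (10.86 to 10.88) was the highest clone, and after activation its arrays (8.89 to 9.17) overlapped with sAg1 and CD8bm1 and lay below sAg3. Itgb7 had a difference of -0.93 ± 0.23 (SE; limma, adjusted p = 0.004), but 8uvmo-3 did not have the largest fall. Its Itgb7 mean went from 12.345 to 9.9575, while sAg1 fell further, from 11.06 to 8.45, as did 8uvmo-2, from 11.645 to 8.04. The mean over the others also holds sAg3 (6.58 to 7.07) and CD8bm1 (6.875 to 6.775), which were low in both states.

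Within the lists, 4 of the 17 metabolism genes (Oxct1, Sqle, Ndrg1 and the amino acid transporter gene Slc38a2) had more positive effects in 8uvmo-3 and 0 more negative ones (limma; 5 and 2 at an unadjusted p under 0.05 with no minimum). Of the 8 receptor genes, Il7r and the activin receptor Acvr1b had more negative ones, as did Trio and Itgb7 among 12 adhesion genes and Rrm2b among 11 cell cycle genes. Atf4, a transcription factor of the amino acid and stress response, and Hdac7 had more positive effects and Cbx7 a more negative one among 18 transcription genes. Azin1 among the translation genes, and Grina and Creld2 among the trafficking genes, had more positive effects. Grina lost its call without activated 8uvmo-3 array 1, and Hdac7 without dormant CD8bm1 array 3 or activated 8uvmo-3 array 2 or 4. The 4 metabolism genes include Slc38a2, whose difference fell to 0.49, below the minimum of 0.5, without the dormant 8uvmo-2 arrays 1 and 3.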

How the data were processed

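Messenger RNA of mouse CD8 T cell clones was measured on 38 Affymetrix arrays from 100 ng of total RNA (QIAGEN RNeasy, WT Plus labelling, per the labels' protocols). The log2 values deposited by the authors are probe set summaries made with RMA and Partek, per the submitters' processing notes; no version or setting was given in the sources used here. The number of arrays limits the precision. Platform annotation named 23410 of 35556 rows; 21789 carry 1 gene symbol, and 21698 matched the GRCm38.p6 gene table, used for chromosome and gene order.

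Groups came from the labels. limma 3.58.1 (R 4.3.3) fitted 10 group means over all arrays with a mean trend in the variances, two-sided, with Benjamini-Hochberg adjustment over all named probe sets; the procedure was tested on simulated data. Genes named are the 10 highest and 6 lowest shifts, the 4 brightest genes per list, the 6 largest activation and 4 largest response differences per direction, and 3 genes on each side of the brightness minimum; others were named after their values were seen. The members and lists were chosen with earlier results of these data known. Same-numbered arrays of both states were not paired: over 18 pairs their deviations correlated at -0.236 to 0.268, with 7 above 0.1. Alternatives covered the brightness minimum, scaling, reference clones, probe set choice, variance model, fold minimum, replicate block and omitted arrays. Rows without a gene name were left out.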

Additional observations from a re-analysis of the deposited data

Results flagged for a closer look

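Among 80 groups of 4 arrays, taken over the chromosome 15 median and 9 genes (Itgb7, Osr2, Grasp, Acvrl1, Dennd3, Myo10, Sla, Selenop and Il7r), 4 held 1 array far from the others, and chance gives about 1 in 20. For Itgb7 these were the lowest activated 8uvmo-2 array (7.88), the lowest dormant 8uvmo-3 array (12.29) and the highest dormant CD8bm1 array (7.56). For Dennd3 it was the lowest dormant 8uvmo-3 array (6.20).

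The activation response of 8uvmo-3 differed from the mean of the other 4 clones (limma, adjusted over all named probe sets) by 2.56 for Myo10, 1.45 for Sla, 1.35 for Oxct1 and 1.34 for Ndrg1. It differed by -2.26 for Il7r, -1.06 for Grasp, -1.06 for Fam118a and -0.96 for Sun2.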

How the results depend on the processing

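The median 8uvmo-3 shift stayed above 0 in all settings run. With no brightness minimum it was 0.046 dormant and 0.064 activated over 736 genes, of which 449 and 495 lay above 0. With a minimum of 7 the activated median was 0.25; with 9 it was 0.32, and 145 and 161 of 180 genes lay above 0. Centred on bright genes of other chromosomes the activated median was 0.32, and with a reference formed without CD8bm1 it was 0.29. With single arrays left out the medians ran from 0.26 to 0.29 dormant and from 0.30 to 0.31 activated, and the counts above 0 from 228 to 235 and from 246 to 252. Without the 20 genes from Derl1 to Phf20l1, a choice made after seeing the data, the medians were 0.28 and 0.31.

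For activation, 15 genes rose with a minimum of 7, 4 rose and 6 fell with 9, 79 rose and 68 fell with no minimum on the log2 difference, and 3 rose and 32 fell on centred arrays. For the difference in activation, 8 were more negative with a brightness minimum of 9, and 52 were more positive and 46 more negative with no minimum on the log2 difference. Under the changed settings of this section, shares of calls over all probe sets were not counted. The counts are therefore a description and cannot be set against the whole array. With single arrays left out, 8 to 9 rose, 8 to 10 fell, 19 to 24 were more positive and 17 to 22 more negative; 16 of the 19 activation calls and 33 of the 41 difference calls held in every such fit. Otulinl's difference in activation was -0.49 on centred arrays and -0.40 after quantile normalization, below the minimum of 0.5 in size. With the replicate block, 8 rose, 9 fell, 21 were more positive and 19 more negative. With that block no call changed among the genes picked by the naming rules given above. Among the same genes, 4 calls were lost and 3 gained on centred arrays, and 1 was lost and 2 gained after quantile normalization. Single genes named outside those rules, such as Cbx7, were not compared. The cause of these changes was not tested. With the brightness minimum applied to the other clones alone, the medians were 0.27 and 0.30 over 275 genes; 6 rose, 8 fell, 22 were more positive and 16 more negative. Without the dormant CD8bm1 arrays 1 and 3 together, 7 rose, 10 fell, 22 were more positive and 19 more negative. Both were chosen after seeing the data. No background level was measured on these arrays.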
